A study of Arabidopsis thaliana with 18 samples.

Results

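The response of Arabidopsis thaliana plants of the accession Col-0 to salicylic acid (SA) was described in 1 matched set of arrays. It comprised SA arrays 10, 11 and 12 and silwet arrays 1, 2 and 3, named by the number in their titles, which are 6 of the 18 arrays of the series. The SA plants had received 0.30 mM SA dissolved in 0.02% silwet and the silwet plants 0.02% silwet alone, so the surfactant was common to both groups. Within each treatment the arrays carry the replicate numbers 1, 2 and 3, and SA array 10 was paired with silwet array 1, SA array 11 with silwet array 2 and SA array 12 with silwet array 3. The other 12 arrays form 2 more sets of the same kind, SA arrays 13 to 15 with silwet arrays 4 to 6 and SA arrays 16 to 18 with silwet arrays 7 to 9. The platform was the Affymetrix ATH1 array, on which a group of short probes (a probe set) stands for 1 transcript.

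The labels name neither a tissue nor a time of harvest, and the sources used here do not say whether the 3 sets differ in time. They do not say that replicate numbers mark separate plantings, so each p-value measures only the spread between these arrays, which may be technical. Few defining markers could be used to check the material, since the probe annotation named 1 of 10 leaf mesophyll markers, 2 of 7 root markers, 2 of 4 guard cell markers and none of the flower, seed, trichome, epidermis or phloem markers. RCA, the Rubisco activase of leaf mesophyll, had signals of 2291, 2334 and 2232 on SA arrays 10, 11 and 12, against 2668, 2663 and 3307 on silwet arrays 1, 2 and 3. Signals of PYK10, a beta-glucosidase abundant in roots, were 107, 69.2 and 114 with SA, against 58.2, 101 and 162 with silwet. The marker FMA (FAMA), a transcription factor of guard cells, gave 32.7, 42.1 and 39.7 with SA, against 35.1, 57.5 and 40.3 with silwet. The other guard cell marker, AT1G22690 (GC1), was brighter, at 252, 252 and 257 with SA, against 247, 265 and 235 with silwet. None of the 4 markers tested passed the test between SA and silwet. In whole-plant or whole-organ RNA, fewer cells of a type and less RNA per cell cannot be told apart.

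Salicylic acid is a phenolic hormone that plants make when pathogens that feed on living tissue attack. It is sensed by NPR proteins, which act with TGA transcription factors on promoters of defence genes, and WRKY transcription factors relay and limit the response. Known outputs in leaves are secreted antimicrobial proteins, the chaperones and transporters of the secretory pathway that handle them, immune receptors, and enzymes that conjugate SA to sugars and so inactivate it. SA also opposes jasmonate responses and growth driven by auxin.

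One of the 6 arrays stood apart in the 3 prime to 5 prime ratios of its actin and GAPDH controls. The ratio of 3 prime to 5 prime signal of the actin control, which is known to rise with RNA degradation, was 6.85 on the log2 scale on SA array 10, while SA arrays 11 and 12 had 1.03 and 0.45, and silwet arrays 1, 2 and 3 had 0.50, 0.89 and 0.15. Its 5 prime actin signal was 13.9, and its 3 prime signal 1612. For the GAPDH control this ratio reached 3.36 there, and no other array of the series exceeded 1.32. The ubiquitin control did not set SA array 10 apart, at 0.93 against 1.06 on SA array 17. RNA quality itself was not measured here. The mean log2 signal of 66 chloroplast-encoded probe sets was 6.67, 8.88 and 8.81 on SA arrays 10, 11 and 12, against 8.50, 8.73 and 9.18 on silwet arrays 1, 2 and 3. The mean over these chloroplast-encoded probe sets was thus low on SA array 10 alone among the 6. Profiles over the 13652 tested probe sets correlated at 0.935 to 0.969 within the SA arrays, 0.941 to 0.944 within the silwet arrays and 0.887 to 0.931 between them. The counts are given with and without SA array 10, and single genes also without it where their call changes.

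**Figure D1:**
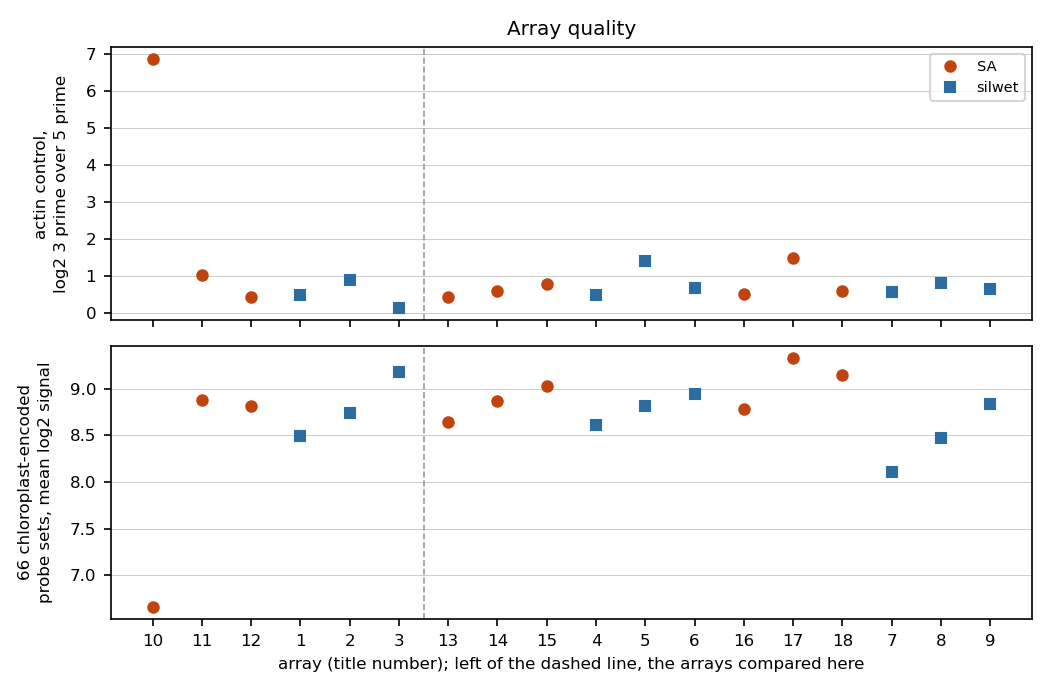
Log2 ratio of 3 prime to 5 prime actin control signal (upper panel) and mean log2 signal of 66 chloroplast-encoded probe sets (lower panel) for each of the 18 arrays, SA as circles and silwet as squares, by title number. SA array 10 lies at 6.85 in the upper panel, where the other 17 arrays lie at or below 1.51, and at 6.67 in the lower panel, where the others lie at or above 8.10.

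Transcript levels differed between SA and silwet in both directions. Of 13652 probe sets tested with limma, 1168 were higher with SA (8.56%) and 1351 lower (9.9%) at a Benjamini-Hochberg adjusted p under 0.05, or 18.5% in either direction, and 4368 had an unadjusted p under 0.05. Of the 1168 higher, 616 name 1 gene, as do 704 of the 1351 lower. All 3 number-matched pairs moved the same way for 1160 of the 1168 and for 1343 of the 1351. The calls were made on these same pairs, so this agreement is partly built in. The share over all probe sets was not counted. A change of at least 2-fold was seen for 351 of the higher probe sets and 264 of the lower, and of at least 4-fold for 18 and 10. Without SA array 10, 1025 were higher (7.51%) and 1258 lower (9.21%). The 2 fits shared 855 higher and 1022 lower probe sets, and none was called in opposite directions. The median over all tested probe sets was a log2 difference of -0.05.

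The counts depended on which array was left out. Without SA array 12 they were 636 higher and 786 lower, without SA array 11 761 and 815, without silwet array 3 689 and 809, and without silwet array 2 891 and 786. Differences within the 3 pairs, over all tested probe sets, correlated at 0.62 between pairs 2 and 3, 0.48 between pairs 1 and 3 and 0.37 between pairs 1 and 2; these correlations are across probe sets, which are not independent replicates. The pair that holds SA array 10 was the least like the others.

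**Figure D2:**
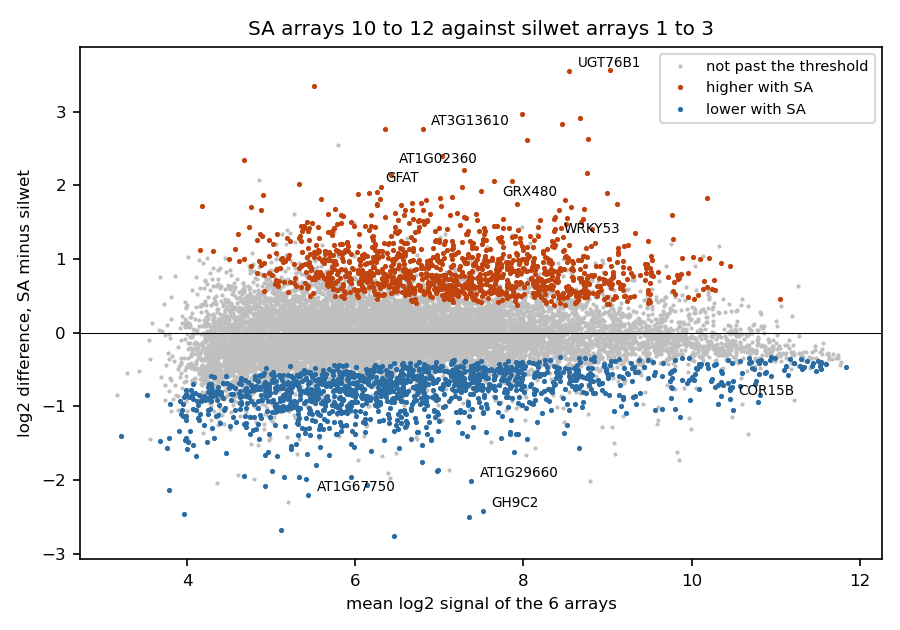
Log2 difference, SA arrays 10 to 12 minus silwet arrays 1 to 3 (vertical axis), against the mean log2 signal of the 6 arrays (horizontal axis) for 13652 tested probe sets, with 1168 called higher and 1351 called lower in colour. Labelled genes are among those described in the text, UGT76B1 being the highest labelled at 3.55 and GH9C2 the lowest labelled at -2.42.

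The largest named rise was in a gene that acts on SA. UGT76B1 encodes a glucosyltransferase that conjugates both isoleucic acid, a defence signal, and SA. Its signals were 1152, 1468 and 1235 on SA arrays 10, 11 and 12, against 115, 119 and 95.2 on silwet arrays 1, 2 and 3. All 3 SA arrays lay far above all 3 silwet arrays, a 11.7-fold difference, and limma gave a log2 difference of 3.55 (standard error 0.49, adjusted p = 0.000701), the largest rise among named genes called with and without SA array 10. AT5G52810, on the list of SA and pipecolic acid synthesis and signalling, had 523, 631 and 747 with SA, against 211, 192 and 243 with silwet, with no overlap. Its log2 difference was 1.55 (standard error 0.16, adjusted p = 8.90e-05). SAG101 encodes a lipase-like partner of the immune regulator EDS1. It had 86.3, 72.4 and 49.6 with SA, against 40.05, 50.5 and 29.96 with silwet, and the groups overlapped, since SA array 12 lay below silwet array 2. The difference of 0.78 (standard error 0.23, adjusted p = 0.0297) was not called without SA array 10 (0.57, adjusted p = 0.128) or without any 1 silwet array, nor without the replicate block. These are both of the 2 members of that list that could be named and tested, of 23 on it, and 2 of 2 were called higher, or 1 of 2 without SA array 10, beside 8.56% and 7.51% of all probe sets.

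Of the 25 SA-inducible defence genes on a list, 5 were named on the array and 4 passed the filter on low signal. The 4 tested members had a median log2 difference of 1.81, where all probe sets had -0.05. Of the 4, 3 rose, beside 8.56% of all probe sets, and without SA array 10 all 4 rose, beside 7.51%. GRX480, a glutaredoxin that binds TGA factors and links SA to the suppression of jasmonate genes, had 523, 286 and 458 with SA, against 148, 40.8 and 158 with silwet. Silwet array 2 was the lowest of all and the SA arrays stayed above every silwet array. The log2 difference was 2.06 (standard error 0.40, adjusted p = 0.00372). WRKY53, a transcription factor gene known from leaf senescence and defence, gave 739, 559.9 and 456 with SA, against 302, 196 and 122 with silwet, again without overlap, and a log2 difference of 1.57 (standard error 0.28, adjusted p = 0.00186). WRKY6 is a related transcription factor gene. Its signals of 143, 201 and 273.4 with SA, against 161, 80.05 and 134 with silwet overlapped, because SA array 10 was below silwet array 1. It missed the threshold with all arrays, at 0.73 (standard error 0.33, adjusted p = 0.137), and passed without SA array 10, at 1.16 (adjusted p = 0.0158). The remaining tested member was UGT76B1. The list and its members were chosen with earlier results of these data known, so the count is a description. Common SA reporters such as PR1 and PR2, and the regulators NPR1 and ICS1, were not analysed here.

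A scopoletin gene and a pair of chitinase loci, singled out with earlier results known, also rose. AT3G13610, listed with the synonym F6'H1, encodes a hydroxylase of the route to scopoletin, a coumarin. It had 218, 332 and 341 on SA arrays 10, 11 and 12, against 49.9, 27.4 and 57.5 on silwet arrays 1, 2 and 3. SA array 10 was the lowest of the SA arrays and still well above silwet array 3, the highest of the silwet arrays. The log2 difference was 2.77 (standard error 0.58, adjusted p = 0.00680). Of the 2 tested members of the phenylpropanoid and coumarin list it was the 1 called, beside 8.56% of all probe sets; the other, DFR, an anthocyanin enzyme, had -0.07 (adjusted p = 0.949). The chitinase gene AT1G02360 gave 175, 166 and 202 with SA, against 54.0, 34.4 and 37.2 with silwet, a 4.399-fold difference with no overlap, or 2.14 (standard error 0.27, adjusted p = 0.000279) on the log2 scale. Chitinases cut the chitin of fungal cell walls. A second chitinase gene, AT4G01700, had 532, 621 and 538 with SA, against 219.6, 259.6 and 263 with silwet, and its log2 difference was 1.19 (standard error 0.20, adjusted p = 0.00158). Family names of loci that carry no symbol are background knowledge and not part of the annotation used.

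Of 31 listed genes of immune receptors and resistance signalling 5 were named and tested. Of these 4 were called higher, beside 8.56% of all probe sets, and none lower, with a median log2 difference of 1.53. Without SA array 10, 3 were called, beside 7.51%. Without silwet array 2, SA array 11 or SA array 12, 2 were called, where 891, 761 and 636 of all 13652 probe sets were higher. SGT1A encodes a co-chaperone that stabilises intracellular immune receptors. Its signals were 624, 636 and 765 with SA, against 278, 309 and 83.9 with silwet. Silwet array 3 was far below the other silwet arrays, and each SA array was above all 3. Its log2 difference was 1.80 (standard error 0.33, adjusted p = 0.00275), and this call was lost when only the 6 arrays entered the fit. AT1G51890, a leucine-rich repeat receptor kinase gene, had 181, 202 and 209 with SA, against 62.5, 65.4 and 76.4 with silwet, which did not overlap, and a log2 difference of 1.53 (standard error 0.19, adjusted p = 0.000279). For AT4G18250, another receptor-like kinase gene, 199.8, 237 and 174 with SA, against 66.6, 60.1 and 53.6 with silwet was measured, also without overlap. Its difference of 1.76 (standard error 0.51, adjusted p = 0.0295) was not called without SA array 10, 11 or 12 or silwet array 2 or 3, when the adjusted p reached 0.102. BIK1, a kinase that pattern-recognition receptors phosphorylate, had 191, 230.4 and 293 with SA, against 165, 135 and 180.4 with silwet. The groups lay close to each other without overlap, and the difference of 0.56 (standard error 0.18, adjusted p = 0.0388) was called without SA array 10 but not without any 1 of the other 5 arrays, nor without the replicate block, without the filter or with the 6 arrays alone. EFR, the receptor for bacterial elongation factor Tu, missed the threshold at 0.62 (standard error 0.22, adjusted p = 0.0612). SGT1A, AT1G51890 and AT4G18250 were known from earlier results of these data, and of the other 2, 1 was called higher.

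Loci outside that list are given one by one. AT5G45000, among the 15 largest rises and a gene with the TIR domain of immune receptors, had 199.7, 138 and 141 on SA arrays 10, 11 and 12, against 41.9, 46.2 and 33.5 on silwet arrays 1, 2 and 3. SA array 10 was the highest, and the lowest SA array lay well above the highest silwet array. The log2 difference was 1.97 (standard error 0.23, adjusted p = 0.000186). AT5G45510, also among the 15 and a leucine-rich repeat gene, had 771, 784 and 713 with SA, against 202, 373 and 176 with silwet, with silwet array 2 the highest of the silwet arrays and no overlap. It differed by 1.68 (standard error 0.31, adjusted p = 0.00277). Other leucine-rich repeat genes, AT3G17640 and DRT100, were among the 15 largest falls. AT1G11330, a lectin-domain receptor kinase gene and 1 of the 6 with the largest positive difference from the other sets, gave 343, 251 and 272 with SA, against 120.3, 174 and 62.7 with silwet and a log2 difference of 1.38 (standard error 0.29, adjusted p = 0.00472). Here SA array 11, the lowest of the SA arrays, lay above silwet array 2, the highest of the silwet arrays.

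Some genes on a list of endoplasmic reticulum folding and secretion, which also holds genes of glycan metabolism, rose. Of 37 genes listed for folding and secretion, 13 were named, 12 were tested and all 12 had a difference above 0, with a median of 0.48, where all probe sets had -0.05. Of the 12, 5 rose, beside 8.56% of all probe sets, and none fell; without SA array 10, 4 rose, beside 7.51%. The other members missed the threshold, down to AT3G63460 at 0.04. GFAT encodes the amidotransferase that opens the hexosamine pathway, the source of the sugar that begins N-glycans. Its signals were 139.6, 147 and 159 on SA arrays 10, 11 and 12, against 43.7, 46.9 and 30.1 on silwet arrays 1, 2 and 3. The 3 SA arrays were tightly grouped, at 3.75-fold the silwet level, and limma gave 1.91 (standard error 0.29, adjusted p = 0.000789). ENGase85A, an endoglucosaminidase that releases N-glycans from misfolded glycoproteins, had 190.1, 207 and 169.8 with SA, against 63.3, 84.5 and 58.6 with silwet and a log2 difference of 1.47 (standard error 0.14, adjusted p = 8.25e-05). AT1G29310, a subunit gene of the Sec61 channel through which proteins enter the endoplasmic reticulum, had 298, 317.1 and 313 with SA, against 178, 149 and 163 with silwet. These groups did not overlap and differed by 0.93 (standard error 0.19, adjusted p = 0.00393). ATERDJ3B, a co-chaperone gene of the reticulum, had 1106, 1052 and 949 with SA, against 685, 586 and 492 with silwet. The lowest SA array lay above the highest silwet array, and the difference was 0.83 (standard error 0.18, adjusted p = 0.00546). AT5G07340, a calnexin gene, had 332.7, 247 and 183 with SA, against 189, 187 and 126 with silwet; SA array 12 lay below 2 of the silwet arrays, and the call at 0.59 (standard error 0.18, adjusted p = 0.0343) was lost without SA array 10 (0.37, adjusted p = 0.161), without silwet array 2 or 3, with array weights, without the filter and without the replicate block. BZIP60, a transcription factor gene of the unfolded protein response, was at 0.49 (standard error 0.17, adjusted p = 0.0587) and missed the threshold. GFAT and ENGase85A were known from earlier results; of the other 10 members tested, 3 rose.

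A few autophagy genes rose. Autophagy delivers cell contents to the vacuole, and ATG8 proteins coat the membrane that encloses them. Of 10 such genes tested, 3 rose and none fell, beside 8.56% and 9.9% of all probe sets. The median was 0.27, where all probe sets had -0.05, and 9 had a difference above 0. The ATG8 gene listed as APG8A had 373, 259.7 and 338 with SA, against 269, 132 and 161 with silwet, with SA array 11 just below silwet array 1. Its log2 difference was 0.84 (standard error 0.19, adjusted p = 0.00730). ATG8B had 157, 139 and 105 with SA, against 85.6, 60.2 and 51.2 with silwet without overlap and differed by 1.04 (standard error 0.20, adjusted p = 0.00279), a call lost without the replicate block. ATG8H had 93.3, 137 and 160.2 with SA, against 59.6, 54.4 and 52.0 with silwet. On SA array 10 it was the least raised, and the 3 silwet arrays were close together. The difference of 1.201 (standard error 0.34, adjusted p = 0.0244) was called without SA array 10 but not without any 1 of the other 5 arrays, when the adjusted p reached 0.124. ATG8E at 0.67 and ATG3, the enzyme that attaches lipid to ATG8, at 0.30 did not pass (adjusted p = 0.0600 and 0.159). These autophagy genes were singled out in earlier results of the same data.

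Several of the 15 largest rises belonged to none of these groups. The 15 were the named genes with the largest rise that passed with and without SA array 10 and moved alike in all 3 pairs, out of 435 that met those conditions. AT3G48650, annotated as a transcribed pseudogene, had 267, 167 and 219 with SA, against 45.1, 45.8 and 15.2 with silwet. Silwet array 3 was the lowest, and SA array 11 was still well above silwet arrays 1 and 2. It differed by 2.76 (standard error 0.35, adjusted p = 0.000279). AT1G08050, a RING-type zinc finger gene, had 203, 344 and 395 with SA, against 57.2, 50.7 and 64.5 with silwet, with SA array 10 the lowest of the SA arrays and no overlap; its log2 difference was 2.40 (standard error 0.42, adjusted p = 0.00190). AT3G28540, a gene of an AAA-type ATPase, had 363, 300.4 and 352 with SA, against 65.6, 93.1 and 64.0 with silwet and a difference of 2.21 (standard error 0.30, adjusted p = 0.000499). These ranges were also separate. AT4G32870 had 397, 312 and 352 with SA, against 120.2, 78.3 and 85.1 with silwet, a log2 difference of 1.92. AT3G29240 had 2569, 2037 and 2021 with SA, against 1068, 455 and 482 with silwet, where silwet array 1 was the highest of the silwet arrays, and differed by 1.83. The EF-hand calcium-binding gene AT4G27280 had 914, 499 and 713 with SA, against 196, 179 and 265 with silwet, with SA array 10 the highest, and differed by 1.71. AT1G10585, a bHLH transcription factor gene, was the 1 of the 15 whose groups overlapped, at 136, 322 and 447 with SA, against 37.1, 59.5 and 193 with silwet. Its call at 1.84 (standard error 0.51, adjusted p = 0.0261) was lost without silwet array 1 or 2 or SA array 11 or 12, with an adjusted p of up to 0.109. Of the 15, 14 were called when any 1 of the 6 arrays was left out. Passing without SA array 10 was a condition for being picked, and the largest rises were taken, so this count is partly built in. The same holds for the lack of overlap among the 15. Over all tested probe sets, 12.7% had every SA array above every silwet array and 17.8% every SA array below.

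**Figure D3:**
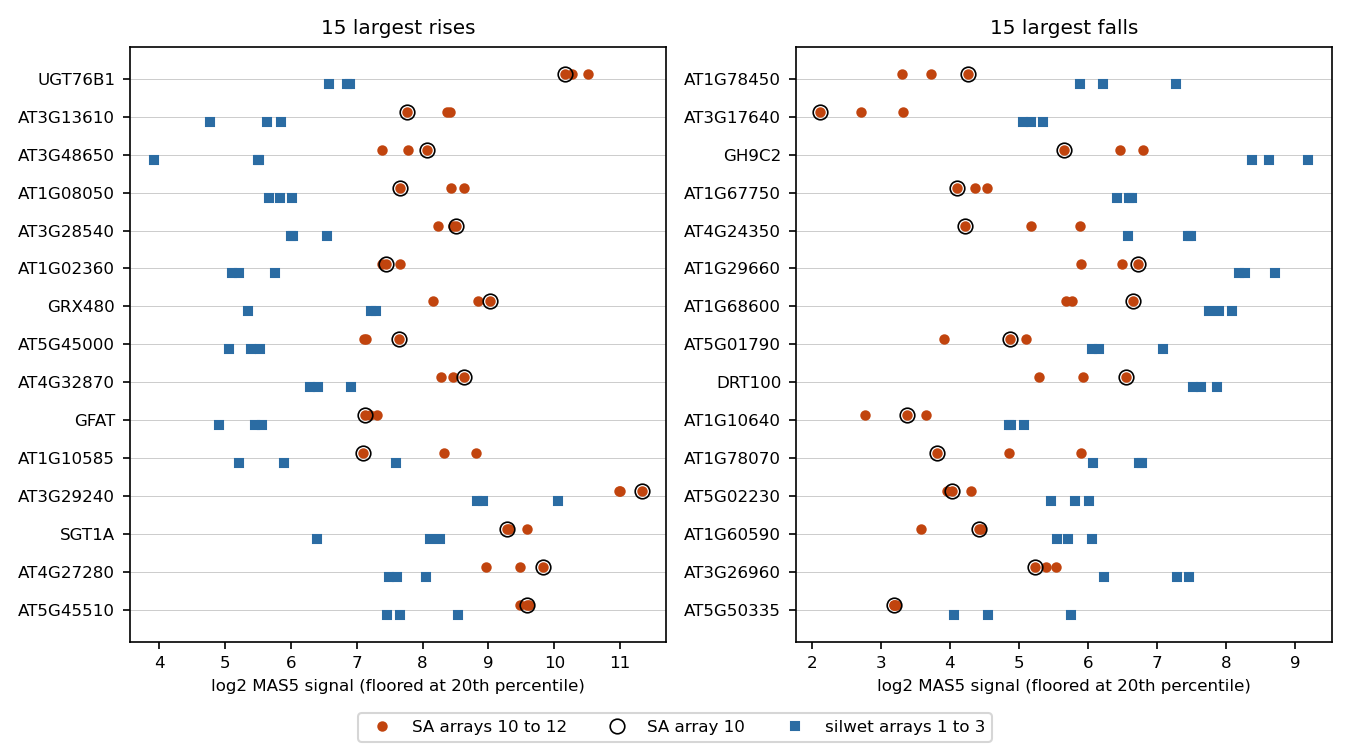
Log2 MAS5 signal, floored at each array's 20th percentile, on each of SA arrays 10 to 12 (circles, SA array 10 ringed) and silwet arrays 1 to 3 (squares) for the 15 largest rises (left) and the 15 largest falls (right). Circles lie right of squares for 14 of the 15 rises, AT1G10585 being the exception, and left of them for all 15 falls.

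Several genes of cell wall loosening fell. Plant cells extend when expansins, endoglucanases and pectin-cutting enzymes loosen the wall. Of 43 named genes of the expansin, xyloglucan, pectin methylesterase and endoglucanase families, 16 were tested, with a median log2 difference of -0.65, where all probe sets had -0.05; 6 fell and 1 rose, beside 9.9% and 8.56% of all probe sets. Without SA array 10, 3 fell and none rose, beside 9.21% and 7.51% of all probe sets. Between 1 and 5 fell when any 1 of the 6 arrays was left out. The 1 was without silwet array 3, where 809 of all 13652 probe sets fell, so that count lay near the share of all. GH9C2 encodes an endoglucanase that cuts cellulose-type glucans. Its signals were 50.1, 88.1 and 112 on SA arrays 10, 11 and 12, against 332.9, 394 and 579 on silwet arrays 1, 2 and 3. SA array 10 was the lowest, all 3 SA arrays were far below the silwet arrays, and silwet was 5.36-fold higher. The log2 difference was -2.42 (standard error 0.21, adjusted p = 3.01e-05). The endoglucanase genes GH9B8 (38.1, 32.3 and 38.1 with SA, against 51.4, 61.2 and 83.0 with silwet) and GH9B7 (291.7, 225 and 286.7 with SA, against 325.04, 384 and 394 with silwet) fell by less, at -0.83 and -0.46. Neither pair of ranges overlapped, but GH9B8 was not called without silwet array 3 or SA array 11, and GH9B7 not without silwet array 2 or 3 or SA array 11 or with the 6 arrays alone. The expansin genes EXPA15 at -0.64, EXPB3 at -0.65 and EXPA4 at -0.84 fell only with SA array 10 in the fit, where they had -0.49, -0.51 and -0.48 without it. PME61, a pectin methylesterase gene, was the 1 that rose, at 0.61 with SA array 10 and 0.44 (adjusted p = 0.138) without it.

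The 15 largest falls also held loci of pectin-degrading enzymes, grouped here after their values were seen. AT1G67750, a pectate lyase gene, had 17.3, 20.6 and 23.2 on SA arrays 10, 11 and 12, against 96.4, 99.2 and 85.9 on silwet arrays 1, 2 and 3. Both groups were tight, and the log2 difference was -2.21 (standard error 0.22, adjusted p = 8.31e-05). The polygalacturonase gene AT1G10640 was dim, at 10.4, 12.6 and 6.85 with SA, against 29.1, 33.7 and 29.7 with silwet, without overlap, and differed by -1.68 (standard error 0.21, adjusted p = 0.000299). A further polygalacturonase gene, AT1G60590, had 21.5, 12.0 and 21.9 with SA, against 46.9, 66.8 and 52.2 with silwet and a difference of -1.62 (standard error 0.27, adjusted p = 0.00132). SA array 11 was the lowest and SA arrays 10 and 12 were nearly equal. AT1G29660, a GDSL-type lipase gene, had 106, 59.8 and 89.7 with SA, against 418, 291.6 and 309.7 with silwet. It differed by -2.02 (standard error 0.32, adjusted p = 0.00128). Members of the GDSL family act on ester bonds, in several cases those of surface lipids.

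The other large falls were of mixed kinds. AT1G78450, a gene of the SOUL family of heme-binding proteins, had 19.2, 13.3 and 9.95 with SA, against 74.6, 58.8 and 154 with silwet. Silwet array 3 was the highest, SA array 12 the lowest, and the difference of -2.68 (standard error 0.36, adjusted p = 0.000442) was the largest fall among these genes. AT3G17640, a leucine-rich repeat gene, had 2.23, 10.0 and 6.59 with SA, against 40.6, 36.1 and 33.4 with silwet; the value on SA array 10 was raised to that array's floor of 4.36 for the test. It differed by -2.47 (standard error 0.44, adjusted p = 0.00203). DRT100, a leucine-rich repeat gene named for DNA-damage repair and toleration, had 93.3, 60.7 and 39.3 with SA, against 233, 184 and 198 with silwet, with SA array 10 the nearest to silwet, and differed by -1.75 (standard error 0.24, adjusted p = 0.000485). AT1G68600, a gene of the family of aluminium-activated malate transporters, had 100.3, 54.4 and 51.5 with SA, against 216, 271 and 238 with silwet and a difference of -1.88 (standard error 0.21, adjusted p = 0.000169). AT4G24350 had 18.7, 36.3 and 59.1 with SA, against 95.3, 175 and 181 with silwet. Its lowest silwet array was well above its highest SA array, and the difference was -2.08. AT1G78070 had 14.1, 29.1 and 59.8 with SA, against 107, 67.2 and 109.7 with silwet, where SA array 12 came near silwet array 2; its difference of -1.67 (standard error 0.46, adjusted p = 0.0240) was -0.95 without SA array 10, and it was not called without any 1 silwet array. AT5G01790, AT5G02230, AT3G26960 and AT5G50335 differed by -1.80, -1.67, -1.61 and -1.58, each without overlap. AT5G50335 was dim on the SA arrays, at 9.17, 9.15 and 9.36, against 23.4, 54.2 and 16.6 on the silwet arrays. Of the 15 falls, drawn from 537 that met the same conditions, 14 were called whichever 1 of the 6 arrays was left out. That count is likewise partly built in by those conditions.

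Families of conjugating and oxidising enzymes held few calls. Among 25 tested UDP-glycosyltransferase genes, which attach sugars to hormones and secondary metabolites, 3 rose and 1 fell, and the median was -0.04. UGT87A2 had 536, 607 and 567 with SA, against 382, 296 and 329.7 with silwet and differed by 0.77 (standard error 0.16, adjusted p = 0.00415). UGT73B5 had 57.7, 160.0 and 120.3 with SA, against 41.2, 55.7 and 63.7 with silwet. SA array 10 lay below silwet array 3, so the groups overlapped, and the call at 0.98 (standard error 0.28, adjusted p = 0.0269) was lost without silwet array 1 or 2 or SA array 11 or 12. UGT78D1, a flavonol rhamnosyltransferase gene, was the 1 that fell, with 36.1, 26.6 and 37.6 with SA, against 65.6, 78.2 and 81.1 with silwet and a difference of -1.18 (standard error 0.15, adjusted p = 0.000355). Of 7 glutathione transferase genes, which attach glutathione to toxic compounds, GSTU27 rose at 0.49 but not without SA array 10 (0.37, adjusted p = 0.0799). GSTU18 was at -0.59 (adjusted p = 0.0937), and at -0.88 without SA array 10, where it was called lower (adjusted p = 0.0182). Of 13 cytochrome P450 genes, CYP71B23 rose at 0.73, a call lost without SA array 10, and CYP71B34 fell at -0.76, a call lost without silwet array 2 or SA array 12. CYP71B28 was at -0.30, and at -0.60 without SA array 10, where it was called lower (adjusted p = 0.0129). The share called in these families, 3 of 25, 1 of 7 and 1 of 13 higher, lay near the background of 8.56%.

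Hormone and stress lists were mostly too thinly named for a count to say much. Of 21 jasmonate and ethylene genes 3 were tested and none passed. PDF1.2, a defensin gene driven by jasmonate and ethylene, had 188, 109.7 and 239 with SA, against 153, 128 and 674 with silwet. Silwet array 3 was far above the rest, and the difference was -0.47 (standard error 1.197, adjusted p = 0.824). EIN3, the transcription factor of ethylene signalling, had 0.33 and THI2.1, a thionin gene, -0.35, neither past the threshold (adjusted p = 0.130 and 0.715). GH3.3, whose enzyme joins auxin to amino acids, had 145, 163 and 336 with SA, against 68.9, 35.5 and 102 with silwet, with SA array 12 the highest and no overlap. Its difference of 1.66 (standard error 0.39, adjusted p = 0.0109) was not called without silwet array 2 or SA array 12. IAA18 and IAA29, repressors of auxin signalling, were at -0.01 and -0.46 and did not pass. COR15B, a cold-regulated gene of a chloroplast-protecting protein, had 1409, 775 and 989.6 with SA, against 1947, 1727 and 2117 with silwet. SA array 11 was the lowest, no SA array reached the silwet range, and the difference was -0.91 (standard error 0.19, adjusted p = 0.00439). Its paralogue COR15A and the dehydrin gene COR47 had -0.49 and -0.53 and missed the threshold (adjusted p = 0.0749 and 0.0596). STZ, a zinc finger gene also known as ZAT10 that responds to many stresses, had 751, 396 and 661 with SA, against 389, 214 and 303 with silwet and a difference of 0.99 (standard error 0.31, adjusted p = 0.0407), which was called with SA array 11 left out but not with any 1 of the other 5 arrays left out, nor with quantile normalization, median centring or no filter. BCAT4, an enzyme of glucosinolate chain elongation, fell with 483, 283.9 and 395 with SA, against 553, 661 and 824 with silwet, or -0.82 (standard error 0.24, adjusted p = 0.0269). It was not called without silwet array 2 or 3 or SA array 11 or 12.

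**Figure D4:**
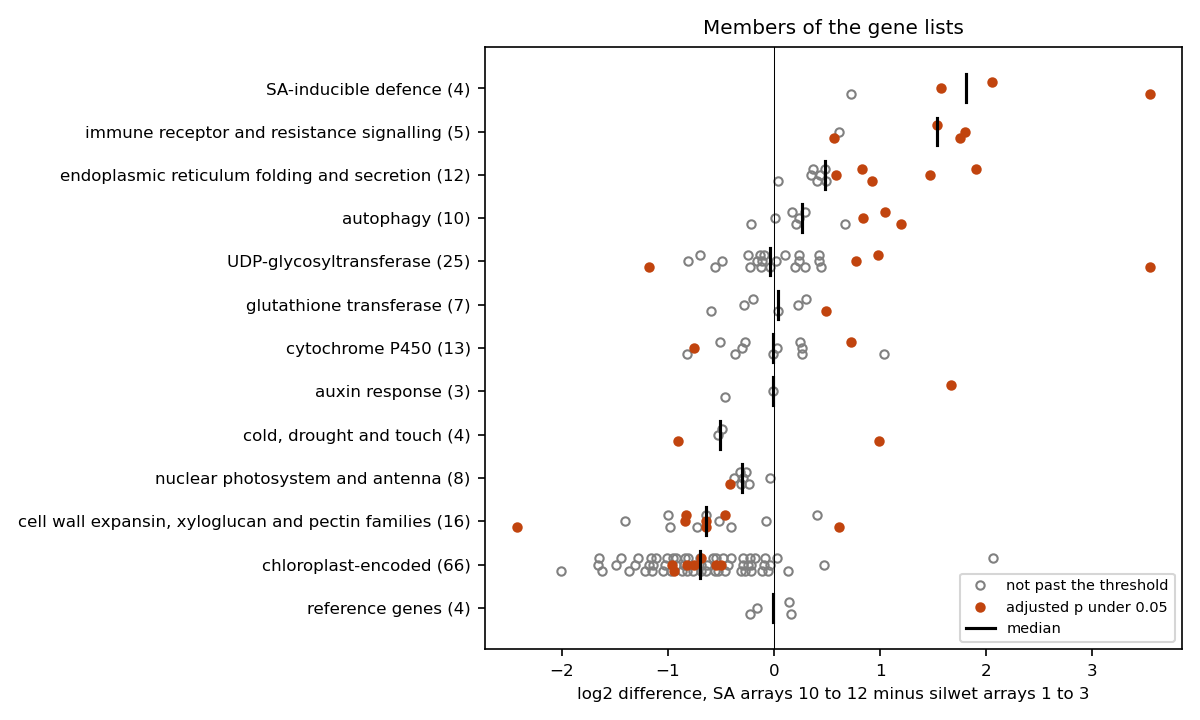
Log2 difference, SA arrays 10 to 12 minus silwet arrays 1 to 3, of each tested member of 13 gene lists, filled where the adjusted p was under 0.05, with the list median as a bar and the number tested in brackets. The immune receptor list has a median of 1.53 and the endoplasmic reticulum list of 0.48, while the cell wall list has -0.65 and the chloroplast-encoded list, which moves with SA array 10, -0.69.

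Few photosynthesis genes passed the test. All 8 tested genes of the nuclear photosystem and antenna list, RCA among them, had a difference below 0, with a median of -0.30 that was -0.05 with quantile normalization. Of the 8, 1 fell, beside 9.9% of all probe sets, and 4 fell without SA array 10, beside 9.21%. PSBY, a subunit of photosystem II, had 2246, 1783 and 2174 on SA arrays 10, 11 and 12, against 2525, 2571 and 3208 on silwet arrays 1, 2 and 3. The highest SA array was below the lowest silwet array, and the difference was -0.42 (standard error 0.13, adjusted p = 0.0390). It was -0.59 (adjusted p = 0.00537) without SA array 10. The call was lost under quantile normalization, at -0.15, under median centring, without the filter, without the replicate block and without any 1 of the other 5 arrays. PSBW, LHCB4.1 and PSAN, proteins of photosystem II, its antenna and photosystem I, had -0.37, -0.31 and -0.29 with all arrays and -0.56, -0.41 and -0.45 without SA array 10, where each was called lower. Of 66 chloroplast-encoded probe sets tested, 7 fell and none rose, with a median of -0.69; this count lay near the 9.9% called lower among all probe sets. Without SA array 10 the median was -0.23, and 1 fell and 1 rose, beside 9.21% and 7.51% of all probe sets. Without silwet array 1 or 3, 1 fell, where 1029 and 809 of all 13652 probe sets fell. Without SA array 11, 18 fell, where 815 of all 13652 fell. The median within pairs was -1.92 for the pair with SA array 10, and -0.05 and -0.46 for the other 2.

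For some chloroplast genes that array stood far from the others. Of the genes given here, psbA, psbH, ycf4, rbcL and accD were chosen with earlier results of these data known. Some other chloroplast genes were not low on SA array 10. Within the pair of SA array 10 and silwet array 1, petN differed by 0.65, ndhG by 0.33 and ndhC by 0.02, where the median of the list was -1.92. The signals of psbA, the D1 protein of photosystem II, were 33.6, 1483 and 1207 on SA arrays 10, 11 and 12, against 438, 614 and 2385 on silwet arrays 1, 2 and 3. For psbH, another subunit of photosystem II, they were 19.4, 696 and 795 with SA, against 839, 877 and 963 with silwet, and for ycf4, an assembly factor of photosystem I, 26.2, 960.5 and 1142 with SA, against 1027, 658 and 1324 with silwet. On SA array 10 each was far below all 5 other arrays, while SA arrays 11 and 12 lay within or near the silwet range. The large subunit of Rubisco, rbcL, had 26.2, 139 and 149.7 with SA, against 98.9, 119 and 337 with silwet, and accD, a subunit of acetyl-CoA carboxylase, 22.7, 876 and 646 with SA, against 245, 829 and 788 with silwet. None of these 5 genes passed the test. The chloroplast gene called lower in both fits was ndhI, a subunit of the NADH dehydrogenase-like complex, with 692, 1880.3 and 1619 with SA, against 2238, 2238 and 2986 with silwet and -0.94 (standard error 0.23, adjusted p = 0.0115), or -0.60 (adjusted p = 0.0356) without SA array 10; this call was lost under quantile normalization and without the replicate block. The gene called higher without it was petG, of the cytochrome b6f complex, at 2.85 (adjusted p = 0.0120), against 2.07 (adjusted p = 0.0555) with it. The part of RNA quality in the chloroplast differences was not tested.

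The SA effect in this set of arrays was set against that in the other 2 sets, each with its own silwet arrays. SA arrays 13 to 15 against silwet arrays 4 to 6 gave 2 higher (0.0146%) and 58 lower (0.425%) probe sets in limma, and SA arrays 16 to 18 against silwet arrays 7 to 9 gave 0 higher (0%) and 7 lower (0.0513%). At an unadjusted p under 0.05 these sets had 1138 and 986, against 4368 here. The difference itself, the effect in this set minus the mean effect of the other 2, was called positive by limma for 1339 probe sets (9.81%) and negative for 1427 (10.5%), or 20.3% in either direction. Without SA array 10 these counts were 1292 and 1465. Of the 1168 probe sets higher here, none was called higher in either other set and 47 were called lower in the second. P-values were adjusted within each comparison, so a call in the other sets needed a smaller unadjusted p than a call here. The lack of shared calls thus does not show a lack of shared rises. UGT76B1, for one, had 2.20 in the second set and 1.42 in the third and was called in neither. The median effect of the 1168 was 0.81 here, -0.28 in the second set and -0.21 in the third. That of the 1351 lower was -0.73, 0.18 and 0.15. Both effects of the other sets were below 0 for 834 of the 1168 (71.4%), and for 4154 of all 13652 probe sets (30.4%). They were both above 0 for 846 of the 1351 (62.6%), and for 3662 of all (26.8%). The sets share no array, while each of the 3 replicate numbers enters the fit once for the whole series. Differences in time, planting or array run between the sets cannot be told apart, since the labels give none of these.

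Among the largest rises the course over the 3 sets varied. UGT76B1 had log2 effects of 3.55 here, 2.20 in the second set and 1.42 in the third. Its effect here exceeded the mean of the others by 1.73, with a standard error of 0.59, and did not pass the test (adjusted p = 0.0565). AT3G13610 had 2.77, 0.62 and 0.17, and its excess of 2.37 passed (adjusted p = 0.0336). GRX480 had 2.06, 0.41 and 0.26. For 10 of the 15 largest rises both other effects were below 0, and for 13 the difference was called, or for 12 without SA array 10, where GRX480 was lost (adjusted p = 0.0578, against 0.0234 with it). GFAT had 1.91, -0.80 and -1.01, and AT5G45510 1.68, -1.04 and -0.90. WRKY53, a member of the SA-inducible list, had 1.57, -0.39 and -0.26, and AT5G52810 1.55, -0.57 and -0.67. The endoplasmic reticulum list had a median of 0.48 here, -0.27 in the second set and -0.46 in the third, and 8 of its 12 tested members had a called excess here, beside 9.81% of all probe sets. All 5 tested immune receptor and resistance genes had one, of which 3 were known from earlier results of these data, as were GFAT and ENGase85A in the endoplasmic reticulum list.

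Among the largest falls the effects in the other sets were near or above 0 for most genes. For all 15 the difference was called, or for 14 without SA array 10, where AT1G78070 was lost (adjusted p = 0.0534, against 0.0399 with it). For 10 both other effects were above 0. GH9C2 had -2.42 here, 0.70 in the second set and -0.07 in the third, and AT1G67750 -2.21, 0.71 and 0.33. The polygalacturonase gene AT1G10640 had -1.68, 1.18 and 0.38. Its difference from their mean of -2.46 had a standard error of 0.26 (adjusted p = 4.54e-05). COR15B had -0.91, 0.07 and 0.42, with a called difference of -1.15 (adjusted p = 0.00272). The cell wall list had medians of -0.65, 0.01 and 0.05, and 4 of its 16 tested members had a called difference below 0, beside 10.5% of all probe sets, and 1 above. All comparisons of the largest changes with the other sets start from genes picked for their change here, so a smaller value in the other sets is partly built in.

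**Figure D5:**
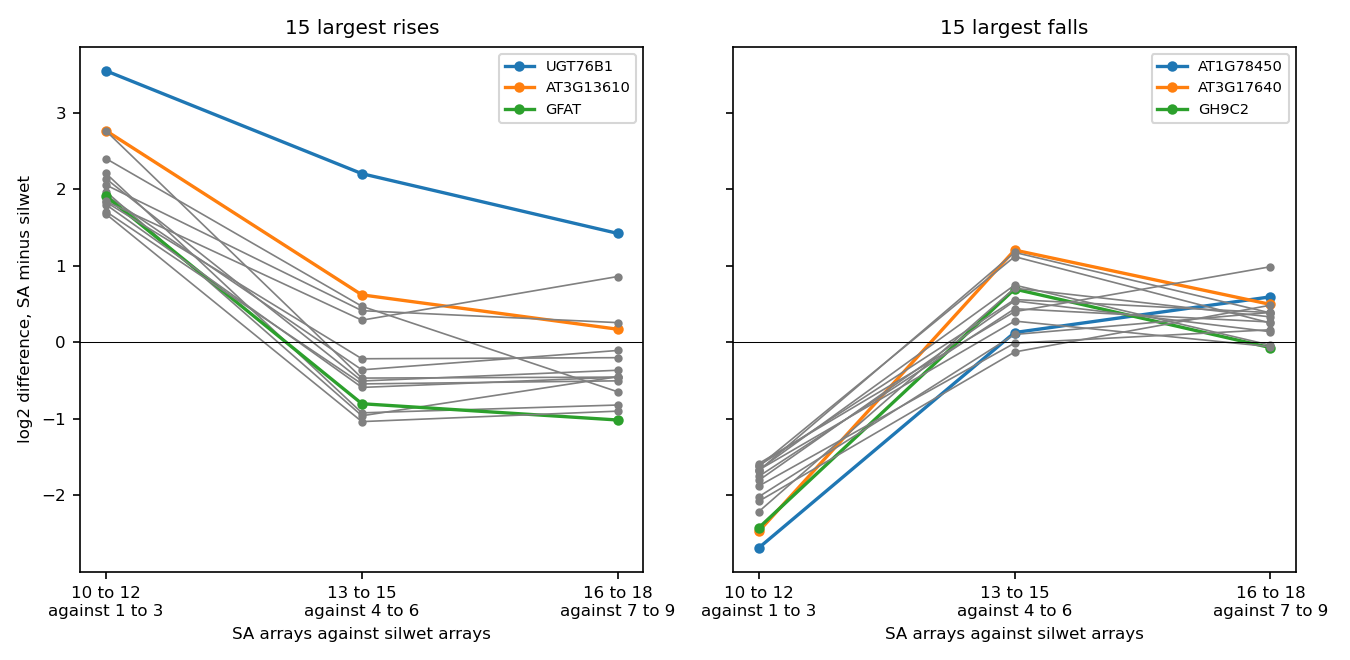
Log2 difference, SA minus silwet, in each of the 3 sets of arrays for the 15 largest rises (left) and the 15 largest falls (right) of SA arrays 10 to 12 against silwet arrays 1 to 3; each line is 1 gene, lines carry no time scale, and 3 genes are coloured in each panel. All 15 rises are highest in the left position, with UGT76B1 at 3.55, 2.20 and 1.42, and all 15 falls are lowest there, with GH9C2 at -2.42, 0.70 and -0.07.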

How the data were processed

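Transcript levels were measured on 18 Affymetrix ATH1 arrays hybridised with biotin-labelled target from total RNA. The deposited values are intensities on a linear scale, 1 MAS5 signal per probe set; the submitters' processing notes name MAS5, while neither its version nor a genome build is given in the sources used here. Trimmed by 2% at each end, the deposited intensities of every array average 100.0, so the arrays share a common scale. Detection calls were not used here. Median signals per array were 29.7 to 36.3. Precision is limited by the number of arrays.

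Each array's 20th percentile served as a floor for its signals before log2 was taken, which understates the change of dim transcripts. Dropping 64 control probe sets and all with a mean under the 40th percentile left 13652 of 22810. limma 3.58.1 in R 4.3.3 (lmFit, eBayes with trend and robust) fitted 6 groups of 3 arrays with the replicate number as a block over all 18 arrays, leaving 10 residual degrees of freedom. P-values were two-sided, adjusted by Benjamini-Hochberg over the 13652, with a threshold of 0.05. Arrays were paired by the replicate number in their titles. Deviations from the group mean correlated at 0.26, 0.26 and 0.43 for SA and silwet arrays of the same number, and at -0.29 to 0.01 for different numbers. Such deviations cancel within each group of 3, so positive values for the same number push those for different numbers down. The contrast between them is thus partly arithmetic, and the labels do not say that the number marks a shared batch. An exact rank test of 3 against 3 unpaired arrays could not fall below a two-sided p of 0.1. The smaller p-values of limma rest on its model of the spread.

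The platform annotation gave the gene names, and symbols were updated from an NCBI gene table (TAIR10.1, used for names only): 13513 name 1 gene (13436 matched, 77 kept the annotation's symbol), 503 name several and 8794 are unnamed here. The genes named are the 15 largest rises and falls among those called with and without SA array 10 and alike in sign in all 3 pairs, up to 5 members of each list by smallest p, the 6 largest differences between sets in each direction, and fixed genes; a gene with several probe sets was represented by the one of highest mean. Other list members whose call changed without SA array 10 were named after their values were seen. Members, lists and rules were chosen with earlier results of these data known. Promoter sequences were not analysed here.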

Additional observations from a re-analysis of the deposited data

Results flagged for a closer look

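The effect of SA in SA arrays 10 to 12 against silwet arrays 1 to 3 differed from the mean effect of the other 2 sets, by limma's test of the difference itself, for 1339 probe sets above and 1427 below. The 6 largest positive differences among named genes were 3.22 for the pseudogene AT3G48650, 3.08 for AT3G28540, 2.82 for GFAT, 2.67 for AT5G45000, 2.64 for AT5G45510 and 2.60 for AT1G11330, on the log2 scale, with standard errors of 0.28 to 0.42. The 6 largest negative ones were -3.32 for AT3G17640, -3.05 for AT1G78450, -2.74 for GH9C2, -2.73 for AT1G67750, -2.70 for AT1G13650 and -2.46 for AT1G10640. All 12 were also called with any 1 of the 6 arrays left out. They were picked as the largest called differences, so this count is partly built in. No array of the other 2 sets was left out. AT1G13650 rests on dim signals, 0.948, 0.889 and 8.12 with SA and 2.50, 20.5 and 30.7 with silwet, of which 2 SA arrays and 1 silwet array were at the floor.

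Outside the measured transcripts, the control probe sets of SA array 10 gave log2 ratios of 3 prime to 5 prime signal of 6.85 for actin and 3.36 for GAPDH, above those of all 9 silwet arrays, which reached 1.43 and 0.59. The ubiquitin control of the same array gave 0.93, against 0.59 to 0.88 on the silwet arrays. SA arrays 17 and 18 gave 1.06 and 0.97, so this control did not set SA array 10 apart.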

How the results depend on the processing

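No value changed its direction under any alternative run, among those that passed the threshold. Without the filter on low signal the probe sets with a negative difference between sets numbered 4448, the median of all probe sets was -0.19 and 22746 were tested. Without the replicate block, which pairs the arrays by number, 845 were higher and 834 lower, and the differences between sets numbered 1034 positive and 925 negative; with a block for each of the 9 pairs they were 1608 and 1957, and 1815 and 2046, and with the 6 arrays alone, at 2 residual degrees of freedom, 1035 and 906. Leaving out 1 array or 1 replicate number gave 378 to 1025 higher and 501 to 1258 lower, and 770 to 1292 positive and 800 to 1465 negative differences. Without replicate number 3 the counts were 378 and 501, and without number 2 they were 636 and 555. These omissions leave fewer arrays; otherwise the cause of each shift was not tested. With the 6 arrays alone 53.3% of calls were higher, against 46.4% in the analysis reported; under quantile normalization it was 48.4%, under median centring 43.6% and with log2(value + 16) 50.1%. Without the replicate block, calls were lost for AT2G04400, AT3G26960, ATG8B, BIK1, EXPA15, EXPB3, GSTU27, Hsp70-2, PSBY, SAG101, AT5G07340, ccsA, ndhI, psaI, rps4 and AT1G13650. With the 6 arrays alone they were lost for AT1G78070, CYP71B34, GH9B7, SGT1A, EXPA15, EXPB3, GSTU27, BIK1, PSBY, AT1G13650, ccsA, ndhI, psaI and rps4. Quantile normalization ended the calls of PSBY, STZ, atpE, ccsA, ndhI and rps4.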

Other observations

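Other gene groups, each thinly named, complete the picture of SA arrays 10 to 12 against silwet arrays 1 to 3. AT2G04400, which encodes an enzyme of tryptophan synthesis, had signals of 1129, 1528 and 1247 on SA arrays 10, 11 and 12, against 869, 901 and 964 on silwet arrays 1, 2 and 3. The groups did not overlap, and the difference of 0.50 (standard error 0.14, adjusted p = 0.0243) missed the threshold without SA array 10 (adjusted p = 0.0551) and without silwet array 2 or 3 or SA array 11. Hsp70-2, a cytosolic chaperone gene and the 1 tested heat shock gene, had 362, 434 and 444 with SA, against 247, 209.6 and 299 with silwet and a difference of 0.72 (standard error 0.20, adjusted p = 0.0238), called without SA array 10 but not without any 1 of the other 5 arrays. SAG29, a sugar transporter gene of senescing leaves, was dim and scattered, at 6.39, 18.9 and 41.0 with SA, against 6.05, 47.0 and 39.0 with silwet, and did not pass.

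Clock genes did not pass: GI had -0.23, COR27 -0.17 and AT4G33980 -0.11, with adjusted p of 0.752, 0.661 and 0.792. Of 5 cellulose synthase-like genes none passed, with differences of -0.36 to 0.37. The 4 reference genes GAPC2, AT2G28390, PEX4 and AT4G34270 had -0.23, -0.16, 0.14 and 0.16, and none passed. WRKY20, WRKY22 and WRKY47, transcription factor genes of the WRKY family, had 0.08, 0.23 and -0.11 without passing the threshold. UGT74B1, a glucosyltransferase of glucosinolate synthesis, had 0.20 (adjusted p = 0.429).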
